A study of Mus musculus with 6 samples.

Results

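The Serpin family of protease inhibitors was followed on 6 one-colour microarrays of mouse gonadal cells. Members were all probes whose gene symbol reads Serpin, then a clade letter from a to i and a number, with or without a further letter. This gave 46 of 26423 probes and 43 of 19084 genes. Clade a had 14 genes, clade b 21, clades f and i 2 each, and clades c, d, g and h 1 each.

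Serpins are built on one shared fold, and most of them block serine proteases by a trap. An exposed loop acts as bait, and the protease that cuts it is dragged across the inhibitor and locked as the loop folds in. Clade a members are mainly secreted, clade b members mainly stay inside the cell, and some members block no protease at all but carry hormones or help other proteins to fold.

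All cells came from ICR mice, and each of the 3 groups held 2 arrays. GSC colonies grew from testicular cells pooled from 80 mice of postnatal day 0 to 2, and PGC colonies from gonadal cells pooled from 67 embryos of stage E11.5 whose sex is not given. Both were seeded unselected on laminin (200 ng/cm2) with insulin, transferrin, selenium and EGF (10 ng/ml), kept for 7 days in 5% O2, and picked for RNA. The CD49f+ sorted cells came from the testes of 100 mice of postnatal day 0 to 2. They were bound by an antibody to CD49f, the integrin subunit encoded by Itga6, separated on magnetic beads and not cultured, and their oxygen is labelled physiological hypoxia with no value. In the labels GSC stands for glandular stem cells, while PGC stands for primordial germ cells. A difference between a colony group and the sorted cells therefore joins culture, colony picking and sorting. For PGC colonies it also joins age and possibly sex. Between PGC and GSC colonies, age and possibly sex are joined. These cannot be told apart.

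Levels below are normalized log2 intensities, on which a step of 1 is a factor of 2. Differences between group means are on the same log2 scale with their standard error (SE), n = 2 arrays a group. A gene was called when its limma p, adjusted by Benjamini-Hochberg over the 15459 genes tested, lay under 0.05. "At least" marks a fold whose dimmer group lay under the filter level of 7.82 on both arrays. Probes differ in brightness, so a level is compared across arrays for 1 gene and never between genes. Nothing in the labels tells separate cell preparations from repeat arrays of 1 pool, so the p-values cover the spread of these arrays alone, and that spread may be technical. In these bulk samples, fewer cells of a type and less RNA per cell cannot be told apart.

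Markers of several cell types moved between the groups. Against sorted cells, fibroblast markers rose in GSC colonies in 13 of 13 measured genes, while 14 of 14 leukocyte, 13 of 15 Sertoli, 10 of 12 endothelial and 4 of 7 Leydig markers fell. The summed fibroblast level, as log2 of the added intensities, was 19.10 to 19.13 in GSC colonies, 14.57 to 14.74 in sorted cells and 18.33 to 18.34 in PGC colonies. The summed Sertoli level was 18.57 to 18.60, 20 to 20.09 and 18.01 to 18.11 in the same order, and the summed leukocyte level 12.96 to 13.05, 17.49 to 17.50 and 13.95 to 14.22. The summed germ cell level was 14.90 to 14.98, 14.48 to 14.75 and 14.41 to 14.74, a sum that Piwil2 carries, at 13.75 to 14.34 over the 6 arrays. Of 16 germ cell markers, 5, 6 and 7 lay under the filter level on both arrays of the group. Of the 11 measured, 6 rose and 1 fell in GSC colonies against sorted cells, 0 rose and 6 fell in PGC against GSC colonies, and 0 rose and 3 fell in PGC colonies against sorted cells. Of all genes tested, 22.5% were called higher and 24.5% lower in the first comparison. The shares were 7.08% and 7.98% in the second, and 22.8% and 23.2% in the third. They apply to every marker list. Dppa3, a marker of primordial germ cells, lay under the filter level on all 6 arrays. In GSC colonies Amh, made by immature Sertoli cells, and C1qb, made by macrophages, lay under it on both arrays. They were among 2 of 15 Sertoli and 4 of 14 leukocyte markers that did so. Others stayed far above the filter level there, such as Clu of the Sertoli list at 17.78 and 17.74 and Cd14 of the leukocyte list at 11.29 and 11.30. Itga6, the sort antigen, was at 11.86 and 11.76 in GSC colonies, 12.26 and 12.10 in sorted cells and 12.34 and 12.44 in PGC colonies. The part of these cell type differences in the Serpin results below was not tested.

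Of the 43 Serpin genes, 28 passed the filter on dim genes, which asked for at least 2 of 6 arrays at or above the 30th percentile. The other 15 ranged from 6.08 to 7.85, and all lay under the level on every array except Serpinb7, which passed it on 1 sorted array. The 15 were Serpina9, Serpina11, Serpina12 (vaspin), Serpina16, Serpinb3d, Serpinb5 (maspin), Serpinb7, Serpinb9c, Serpinb9d, Serpinb11, Serpinb12, Serpinb13, Serpinc1 (antithrombin), Serpind1 (heparin cofactor II) and Serpini2. A gene that is bright in 1 group alone passes through that group, as Serpinb2 did through PGC colonies, so counts among the 28 lean towards change. Of the 28, 6 were called in all 3 comparisons, namely Serpina3n, Serpina5, Serpinb9, Serpinb9b, Serpinf1 and Serpini1, and 11 were called in none. The share of all genes called in all 3 comparisons, or in none, was not computed, so these counts only list the members.

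The promoter sequences of 4 members are given because 3 of them were called in every comparison and Serpinh1 was high in both kinds of colony; they were chosen after the values were seen. The stretches are from RefSeq on GRCm38.p6, run 5′ to 3′ on the gene's own strand and end at the base before the gene. The Serpina3n stretch, of 188 bases, is therefore shorter than the window of 250 bases searched for motifs, whose last bases lie within the annotated gene. The stretches are chr12:104406458-104406645 on the plus strand for Serpina3n, chr13:33027164-33027413 on the plus strand for Serpinb9b, chr7:99353240-99353489 on the minus strand for Serpinh1 and chr3:75557243-75557492 on the plus strand for Serpini1. Capitals mark matches to the motifs searched.
Serpina3n: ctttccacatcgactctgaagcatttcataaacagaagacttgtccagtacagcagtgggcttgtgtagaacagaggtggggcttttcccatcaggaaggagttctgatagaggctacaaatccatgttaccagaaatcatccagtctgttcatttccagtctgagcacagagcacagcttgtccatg
Serpinb9b: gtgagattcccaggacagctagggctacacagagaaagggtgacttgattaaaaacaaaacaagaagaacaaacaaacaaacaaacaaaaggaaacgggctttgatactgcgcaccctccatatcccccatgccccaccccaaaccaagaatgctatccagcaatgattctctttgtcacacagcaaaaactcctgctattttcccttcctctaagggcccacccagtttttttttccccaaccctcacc
Serpinh1: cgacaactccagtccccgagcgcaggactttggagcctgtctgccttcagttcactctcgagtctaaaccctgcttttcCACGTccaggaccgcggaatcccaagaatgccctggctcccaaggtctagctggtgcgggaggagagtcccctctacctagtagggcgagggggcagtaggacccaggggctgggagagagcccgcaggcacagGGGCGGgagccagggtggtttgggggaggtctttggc
Serpini1: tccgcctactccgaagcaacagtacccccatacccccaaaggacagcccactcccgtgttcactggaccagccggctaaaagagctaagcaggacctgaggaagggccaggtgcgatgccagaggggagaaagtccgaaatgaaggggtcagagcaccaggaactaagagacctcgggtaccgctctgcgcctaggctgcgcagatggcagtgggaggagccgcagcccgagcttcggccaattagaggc

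A total of 6 motifs was searched on both strands in the 250 bases before the start. The TATA box was searched as TATAAA. The core bound by hypoxia-inducible factors was searched as ACGTG, with its variant as GCGTG. The GC box bound by Sp1 was searched as GGGCGG. The STAT site was searched as TTCNNNGAA and paired heat shock units as GAANNTTC; their matches may overlap, and both were added after the values were seen. In Serpinh1, ACGTG stood on the opposite strand at positions -171 to -167 from the start, and GGGCGG at -37 to -32. The windows of Serpina3n, Serpinb9b and Serpini1 held none of the 6. Windows were found for 37 of the 43 members, some with several starts. Where the windows of a gene overlap, the same site can be counted more than once. By gene, TATAAA stood in 10 of the 37 members and TTCNNNGAA in 6. TATAAA stood in 13 of 46 member windows (28.3%) and in 12.4% of 32851 windows of all genes, TTCNNNGAA in 8 (17.4%) and 7.02%, and GAANNTTC in 2 (4.35%) and 6.69%. ACGTG stood in 5 (10.9%) and 16.6%, GCGTG in 8 (17.4%) and 28.2%, and GGGCGG in 6 (13%) and 32.7%. A match describes these letters and is no measure of binding.

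**Figure D1:**
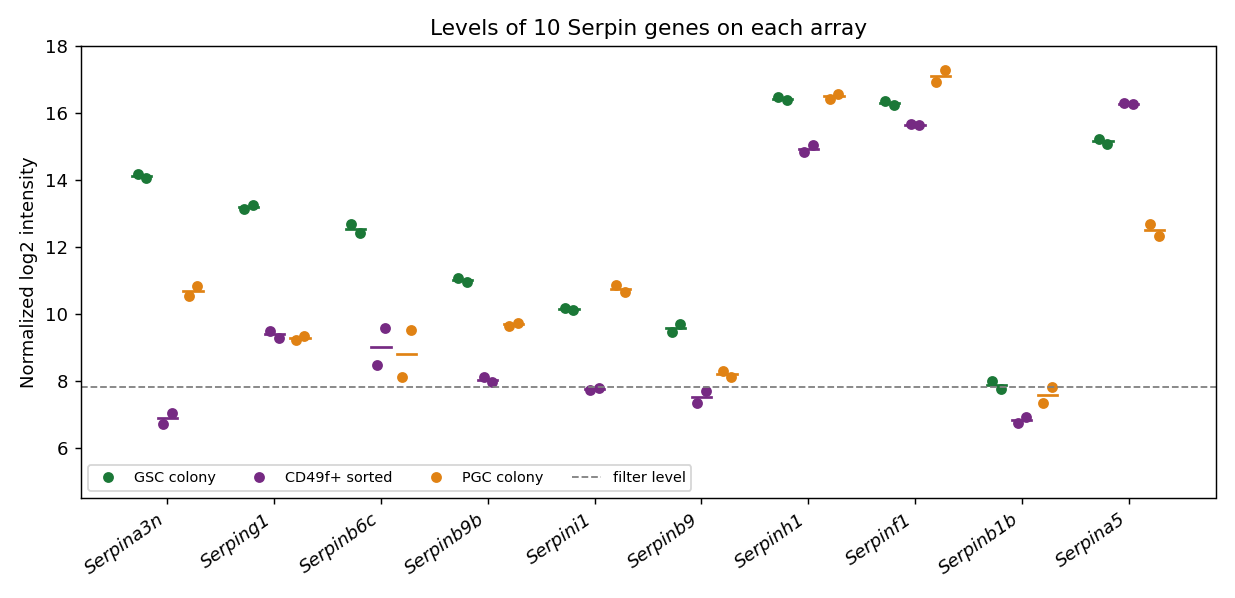
Normalized log2 intensity (y axis) of the 10 Serpin genes called with a fitted difference of at least 2-fold in some comparison. Points are arrays, short bars the mean of 2 arrays and the dashed line the filter level of 7.82; Serpina3n lies at 14.06 to 14.18 in GSC colonies and under the line in sorted cells, while Serpina5 is highest in sorted cells and lowest in PGC colonies.

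GSC colonies against CD49f+ sorted cells asked how picked testicular colonies differ from uncultured cells of the same age. Most called Serpin genes were higher in the colonies, led by Serpina3n, Serping1 (C1 inhibitor), Serpinb6c and Serpinb9b, and the 2 lower ones were Serpina5 (protein C inhibitor) and Serpinb6a. Of 28 members 16 were called, 57.1%, where 47.1% of all genes tested were called. Of these 14 were higher, against 22.5% of all genes, and 2 lower, against 24.5%. A fitted difference of at least 2-fold was called for 9 members, 8 higher and 1 lower, against 20.7% of all genes. The 8 include Serpinb1b, whose sorted arrays lay under the filter level and whose fold is bounded only as at least 1.03-fold. The median member difference was 0.59, and the median over all genes -0.01. Without normalization between arrays, where the median of all genes itself rose to 0.465, 24 members were called, all 24 higher.

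PGC colonies against GSC colonies compared colonies of embryonic and newborn origin after the same culture. Here the larger differences ran one way: the 6 members called at 2-fold or more were all lower in PGC colonies, namely Serpina3n, Serpina5, Serpinb6c, Serpinb9, Serpinb9b and Serping1. In all 9 of 28 members were called, 32.1%, where 15.1% of all genes were. The 3 higher ones, Serpinb2, Serpinf1 and Serpini1, compare with 7.08% of all genes, the 6 lower ones with 7.98%, and the 6 at 2-fold or more with 5.17%. The median member difference was -0.17, and that of all genes 0.01.

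PGC colonies against sorted cells differ in culture, colony picking, sorting, age and possibly sex at once. The called members were again mainly higher in the colonies, with Serpina3n, Serpini1, Serpinb9b, Serpinh1 and Serpinf1 past 2-fold, and Serpina5 lay further below the sorted cells than in GSC colonies, by the difference of 2.66 given below. Called were 13 of 28 members, 46.4%, where 46% of all genes were called. Of these 11 were higher, against 22.8% of all genes, and 2 lower, against 23.2%, and 6 passed 2-fold, against 20%. The 11 include Serpinb1b, which lay near or under the filter level and for which no fold above 1 can be bounded. The median member difference was 0.23, and that of all genes -0.02. Without normalization between arrays 20 members were called, 19 higher and 1 lower. The comparisons share arrays, so their counts are not independent.

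**Figure D2:**
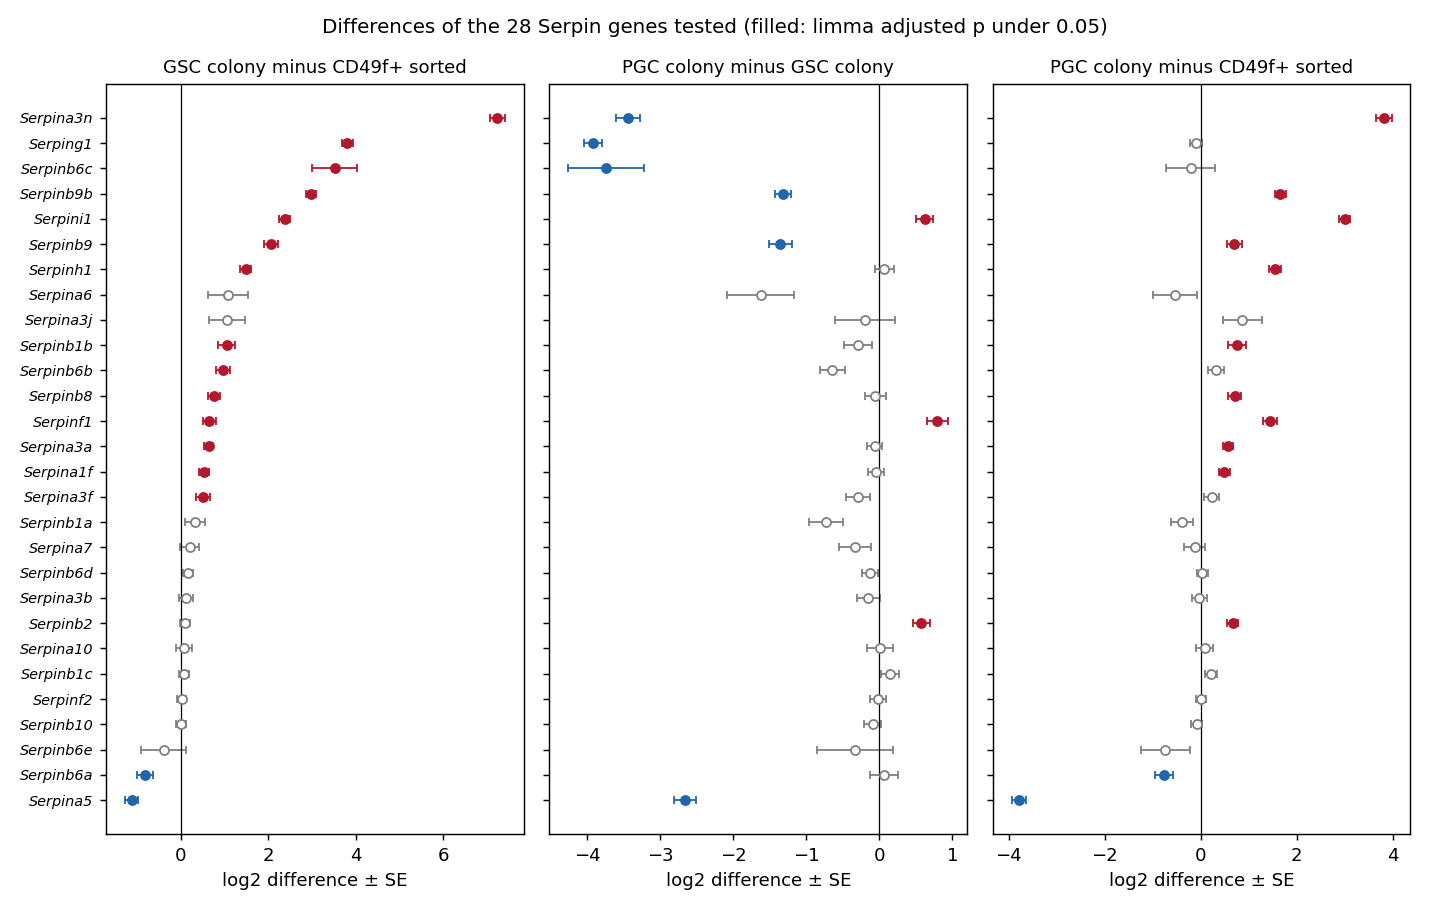
The log2 difference of group means with its SE (x axis) for the 28 Serpin genes tested, in the 3 comparisons, ordered by the first; filled points passed limma's adjusted p of 0.05, red higher and blue lower. Serpina3n stands at 7.25 on the left panel and -3.43 on the middle one, and all 6 filled points beyond a difference of 1 on the middle panel are negative.

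Among the secreted clade a inhibitors, Serpina3n showed the widest range. It is a mouse relative of antichymotrypsin that blocks granzyme B and leukocyte elastase. It measured 14.18 and 14.06 in GSC colonies, 6.70 and 7.05 in sorted cells, and 10.54 and 10.83 in PGC colonies. The groups did not overlap, with GSC colonies high, PGC colonies between and both sorted arrays under the filter level. In deposited intensity the values were 22100 and 20900, 34.5 and 50.1, and 1610 and 1940. GSC colonies were at least 78.6-fold above sorted cells (limma adjusted p = 2.2e-06) and PGC colonies at least 7.27-fold (limma adjusted p = 1.3e-05). PGC colonies fell by 3.43 ± 0.17 (SE) against GSC colonies, 10.8-fold (limma adjusted p = 9.8e-05).

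Serpina5, the protein C inhibitor, which the male reproductive tract secretes and the loss of which makes male mice infertile, ran in another order. It measured 16.30 and 16.25 in sorted cells, 15.23 and 15.08 in GSC colonies, and 12.68 and 12.31 in PGC colonies. Sorted cells were highest and PGC colonies lowest, with no overlap. PGC colonies fell by 3.78 ± 0.15 (SE) against sorted cells, 13.8-fold, and by 2.66 ± 0.15 (SE) against GSC colonies, 6.32-fold (limma adjusted p = 9.9e-06 and 0.00018). GSC colonies fell by 1.12 ± 0.15 (SE) against sorted cells (limma adjusted p = 0.0013), which became -0.35 without normalization between arrays (adjusted p = 0.069). Of 7 Leydig markers, 2 rose and 4 fell in GSC colonies against sorted cells, 1 rose and 2 fell in PGC against GSC colonies, and 1 rose and 4 fell in PGC colonies against sorted cells. They did not share one order. Cyp17a1, a steroid-making enzyme, differed by -2.47 and -3.88 in GSC and PGC colonies against sorted cells, while Cyp11b1, another, rose by 0.94 and 2.16 (limma adjusted p = 3.1e-05, 7.4e-06, 0.0075 and 0.00021). The summed Leydig level was 16.93 on both sorted arrays, 14.94 on both GSC colony arrays and 14.79 to 14.83 in PGC colonies. Hsd17b3, at 15.41 and 15.51, added most to the sorted sum. Cyp11a1 of the same list lay near the filter level, between 7.70 and 8.07 on all 6 arrays, and was not called. The part of the Leydig markers in the Serpina5 difference, like that of the Sertoli markers, was not tested.

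The remaining clade a genes moved little or varied between the arrays of a pair. Serpina3a measured 9.61 and 9.71 in GSC colonies, 8.97 and 9.06 in sorted cells, and 9.63 and 9.56 in PGC colonies. Both colony groups lay above the sorted cells, by 0.64 ± 0.11 and 0.57 ± 0.11 (SE; limma adjusted p = 0.0034 and 0.0056), and overlapped each other. Serpina1f showed a like pattern, with differences of 0.54 ± 0.11 and 0.49 ± 0.11 (SE; limma adjusted p = 0.0082 and 0.012), and both calls were lost without sorted replicate 2 (0.457 and 0.41, adjusted p = 0.067 and 0.092). Serpina3f was called at least 1.17-fold higher in GSC colonies than in sorted cells, on a difference of 0.52 ± 0.16 (SE; limma adjusted p = 0.037). That call was lost without GSC colony replicate 2 (0.34, adjusted p = 0.19), sorted replicate 1 (0.633, 0.069) or 2 (0.421, 0.18) and PGC colony replicate 1 (0.516, 0.054) or 2 (0.519, 0.052), under median centring (0.39, 0.1), with the replicate number as a block (0.52, 0.065), and in a fit of only these groups (0.52, 0.053).

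Serpina6, corticosteroid-binding globulin, which carries hormone and traps no protease, measured 13.63 and 12.91 in GSC colonies, 11.54 and 12.83 in sorted cells, and 11.38 and 11.92 in PGC colonies. The arrays of each pair lay far apart, and no difference was called: 1.09 ± 0.46 between GSC colonies and sorted cells, -1.63 ± 0.46 between PGC and GSC colonies, and -0.54 ± 0.46 between PGC colonies and sorted cells (SE; limma adjusted p = 0.099, 0.064 and 0.39). Serpina10, the protein Z-dependent inhibitor, differed by 0.07, 0.01 and 0.08, with an SE of 0.18 each. Serpina3b, Serpina3j and Serpina7 (thyroxine-binding globulin) lay near the filter level and were not called. The Serpina3 genes are close paralogs that lie together on chromosome 12, so probes of this cluster may share signal, and their values are uncertain to that extent.

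Serping1 and Serpini1, secreted inhibitors of other clades, separated the groups in different ways. Serping1 is the C1 inhibitor, which stops the first complement proteases and the contact system. It measured 13.13 and 13.25 in GSC colonies, 9.48 and 9.28 in sorted cells, and 9.23 and 9.34 in PGC colonies. Both GSC colony arrays were high, and the sorted and PGC colony pairs overlapped. GSC colonies were higher than sorted cells by 3.81 ± 0.12 (SE), 14-fold, and PGC colonies fell by 3.91 ± 0.12 (SE) against GSC colonies, 15-fold (limma adjusted p = 4.1e-06 and 2.5e-05). PGC colonies and sorted cells differed by -0.10 ± 0.12 (SE; limma adjusted p = 0.55). Some markers of other cell types were also highest in GSC colonies. Zbtb16, a marker of undifferentiated spermatogonia, was at least 6.17-fold above sorted cells and PGC colonies were at least 6.19-fold below (limma adjusted p = 1.7e-05 and 0.00011). Of 11 measured germ cell markers, 6 rose and 1 fell in the first comparison, and 0 rose and 6 fell in the second. Gfra1 differed by -0.09 and 1.32 and Nanos2 by 0.00 and -0.26, with no call. Kit fell by 1.14 in the first comparison and was not called in the second. Msln, a mesothelial marker, was 10.1-fold above sorted cells and PGC colonies were at least 10.2-fold below (limma adjusted p = 3.8e-06 and 1.9e-05). Over the list of 9 measured epithelial and mesothelial markers, 2 rose and 4 fell in GSC colonies against sorted cells, 0 rose and 3 fell in PGC against GSC colonies, and 0 rose and 8 fell in PGC colonies against sorted cells. The summed level of that list was 13.10 to 13.12 in GSC colonies, 13.99 to 14.04 in sorted cells and 12.41 to 12.48 in PGC colonies. The part of these cells in the Serping1 differences was not tested.

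Serpini1, neuroserpin, an inhibitor of tissue plasminogen activator known mainly from neurons, was high in both kinds of colony. It measured 10.16 and 10.11 in GSC colonies, 7.71 and 7.79 in sorted cells, and 10.87 and 10.64 in PGC colonies. Both sorted arrays lay under the filter level, and no groups overlapped. GSC colonies were at least 4.96-fold and PGC colonies at least 7.62-fold above sorted cells (limma adjusted p = 2.1e-05 and 1.1e-05). PGC colonies exceeded GSC colonies by 0.62 ± 0.12 (SE; limma adjusted p = 0.021). This last call was lost without GSC colony replicate 1 (0.641, adjusted p = 0.067) or 2 (0.594, 0.071), sorted replicate 1 (0.622, 0.051) or PGC colony replicate 1 (0.505, 0.052), and in a fit of only these groups (adjusted p = 0.051). Serpinf2, the plasmin inhibitor alpha-2-antiplasmin, was at 11.13 and 11.10, 11.14 and 11.04, and 11.12 and 11.07 in GSC colonies, sorted cells and PGC colonies, with differences of 0.02, -0.02 and 0.01 in the 3 comparisons and an SE of 0.10.

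Serpinh1 and Serpinf1, which block no protease, were higher in both kinds of colony than in sorted cells. Serpinh1, also called HSP47, is the chaperone of procollagen in the endoplasmic reticulum. It measured 16.47 and 16.37 in GSC colonies, 14.83 and 15.04 in sorted cells, and 16.42 and 16.57 in PGC colonies. The colony groups overlapped each other and lay above both sorted arrays. The differences from sorted cells were 1.49 ± 0.13 for GSC colonies, 2.8-fold, and 1.56 ± 0.13 for PGC colonies, 2.94-fold (SE; limma adjusted p = 0.00017 and 0.00015). Between the colony groups the difference was 0.07 ± 0.13 (SE; limma adjusted p = 0.76).

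Serpinf1, pigment epithelium-derived factor, a secreted protein that limits blood vessel growth and binds collagen, was brightest in PGC colonies. It measured 16.36 and 16.24 in GSC colonies, 15.67 and 15.63 in sorted cells, and 16.92 and 17.27 in PGC colonies, with no overlap. PGC colonies exceeded sorted cells by 1.45 ± 0.15 and GSC colonies by 0.80 ± 0.15 (SE; limma adjusted p = 0.00037 and 0.016). GSC colonies exceeded sorted cells by 0.65 ± 0.15 (SE; limma adjusted p = 0.011), a call lost without sorted replicate 1 (0.671, adjusted p = 0.054) or 2 (0.633, 0.065). Beside both genes stand the fibroblast markers, such as Dcn, a proteoglycan, at 17.91 on both GSC colony arrays, 14.13 and 13.86 in sorted cells, and 17.06 and 16.86 in PGC colonies. Between PGC and GSC colonies these markers split: of 13 measured, 3 rose and 7 fell, Dcn among those that fell. The part of the fibroblast markers in the Serpinh1 and Serpinf1 differences was not tested.

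Among the intracellular clade b genes, the granzyme B inhibitor Serpinb9 and its relative Serpinb9b followed one order, with GSC colonies highest, then PGC colonies, then sorted cells. Serpinb9 shields cells from granzyme B, the protease of killer lymphocytes. It measured 9.45 and 9.68 in GSC colonies, 7.34 and 7.68 in sorted cells, and 8.30 and 8.12 in PGC colonies. No groups overlapped, and both sorted arrays lay under the filter level. GSC colonies were at least 3.35-fold above sorted cells (limma adjusted p = 0.00012), and PGC colonies fell by 1.35 ± 0.16 (SE) against GSC colonies (limma adjusted p = 0.0031). PGC colonies were at least 1.31-fold above sorted cells (limma adjusted p = 0.013), a log2 difference of 0.70 whose call was lost without sorted replicate 1 (0.545, adjusted p = 0.075) or PGC colony replicate 1 (0.613, 0.069).

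Serpinb9b measured 11.06 and 10.96 in GSC colonies, 8.10 and 7.96 in sorted cells, and 9.65 and 9.73 in PGC colonies. The 3 pairs were tight and did not overlap. GSC colonies were 7.88-fold above sorted cells, by 2.98 ± 0.11 (SE), and PGC colonies 3.15-fold, by 1.66 ± 0.11 (SE; limma adjusted p = 6.6e-06 and 7.1e-05). PGC colonies fell by 1.32 ± 0.11 (SE) against GSC colonies, 2.5-fold (limma adjusted p = 0.00084). Gzmb, granzyme B itself, lay under the filter level on all 6 arrays, between 6.80 and 7.49, and was not tested.

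The Serpinb6 genes, relatives of a human inhibitor of cathepsin G and other proteases, went different ways. Serpinb6c measured 12.67 and 12.41 in GSC colonies, 8.46 and 9.58 in sorted cells, and 8.11 and 9.51 in PGC colonies. Both GSC colony arrays lay far above the rest, while the sorted and PGC colony pairs were spread over more than 1 unit and overlapped. GSC colonies were higher than sorted cells by 3.52 ± 0.52 (SE), and PGC colonies fell by 3.73 ± 0.52 (SE) against GSC colonies, 13.3-fold (limma adjusted p = 0.0019 and 0.0058). PGC colonies and sorted cells differed by -0.21 ± 0.52 (SE; limma adjusted p = 0.78).

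Serpinb6a, the bright widely expressed form, measured 15.54 and 15.62 in GSC colonies, 16.24 and 16.55 in sorted cells, and 15.88 and 15.40 in PGC colonies. Sorted cells were highest without overlap, and the colony groups overlapped. The differences from sorted cells were -0.82 ± 0.19 for GSC colonies and -0.76 ± 0.19 for PGC colonies (SE; limma adjusted p = 0.013 and 0.018). Neither call held without normalization between arrays (-0.0368 and -0.201, adjusted p = 0.88 and 0.39) or without sorted replicate 2 (-0.67 and -0.605, adjusted p = 0.079 and 0.1). The first was also lost under median centring (-0.457, adjusted p = 0.072) and the second without PGC colony replicate 2 (-0.525, adjusted p = 0.064).

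Serpinb6b measured 13.12 and 13.02 in GSC colonies, 12.15 and 12.06 in sorted cells, and 12.66 and 12.19 in PGC colonies. GSC colonies were higher than sorted cells by 0.97 ± 0.17 (SE; limma adjusted p = 0.0041), and PGC colonies, between them, differed from GSC colonies by -0.64 ± 0.17 (SE; limma adjusted p = 0.054). Serpinb6d and Serpinb6e were not called in any comparison, and the Serpinb6e pairs had an SD of 0.77 in GSC colonies and 0.99 in PGC colonies. The Serpinb6, Serpinb9 and Serpinb1 genes are close paralogs on chromosome 13, so their probes may share signal and the values are uncertain to that extent.

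The other clade b genes were dim or changed by less than 2-fold, apart from Serpinb1b. Serpinb8, an inhibitor of furin, measured 9.60 and 9.68 in GSC colonies, 8.86 and 8.90 in sorted cells, and 9.76 and 9.42 in PGC colonies. Both colony groups lay above the sorted cells, by 0.76 ± 0.14 and 0.71 ± 0.14 (SE; limma adjusted p = 0.0052 and 0.0071). Furin differed by 0.02, -0.15 and -0.13 in the 3 comparisons, with an SE of 0.13 and no call. Serpinb2, the plasminogen activator inhibitor of type 2, measured 8.14 and 8.16 in PGC colonies and stayed under the filter level on the 4 other arrays. PGC colonies were at least 1.26-fold above GSC colonies and above sorted cells (limma adjusted p = 0.022 and 0.0038). The first call was lost without GSC colony replicate 2 (0.484, adjusted p = 0.12), sorted replicate 1 (0.587, 0.051) or 2 (0.582, 0.052), and in a fit of only these groups (0.577, adjusted p = 0.053).

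Serpinb1b, a relative of the leukocyte elastase inhibitor, sat at the filter level, with 7.98 and 7.75 in GSC colonies, 6.73 and 6.90 in sorted cells, and 7.33 and 7.82 in PGC colonies. GSC colonies were at least 1.03-fold above sorted cells (limma adjusted p = 0.0044), on a fitted difference of 1.05 ± 0.19 (SE). PGC colonies and sorted cells differed by 0.76 ± 0.19 (SE; limma adjusted p = 0.017), a call lost without sorted replicate 1 (difference 0.685). Both sorted arrays and 1 PGC colony array lay under the filter level, so no fold above 1 can be bounded here. Serpinb1a, the leukocyte elastase inhibitor, differed by 0.34, -0.73 and -0.39 without a call (limma adjusted p = 0.28, 0.086 and 0.21). Serpinb1c and Serpinb10 were also not called, and Serpinb10 stayed between 9.89 and 10.07 on all 6 arrays. Over the 28 genes the median SD within a pair was 0.085 in GSC colonies, 0.136 in sorted cells and 0.142 in PGC colonies.

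**Figure D3:**
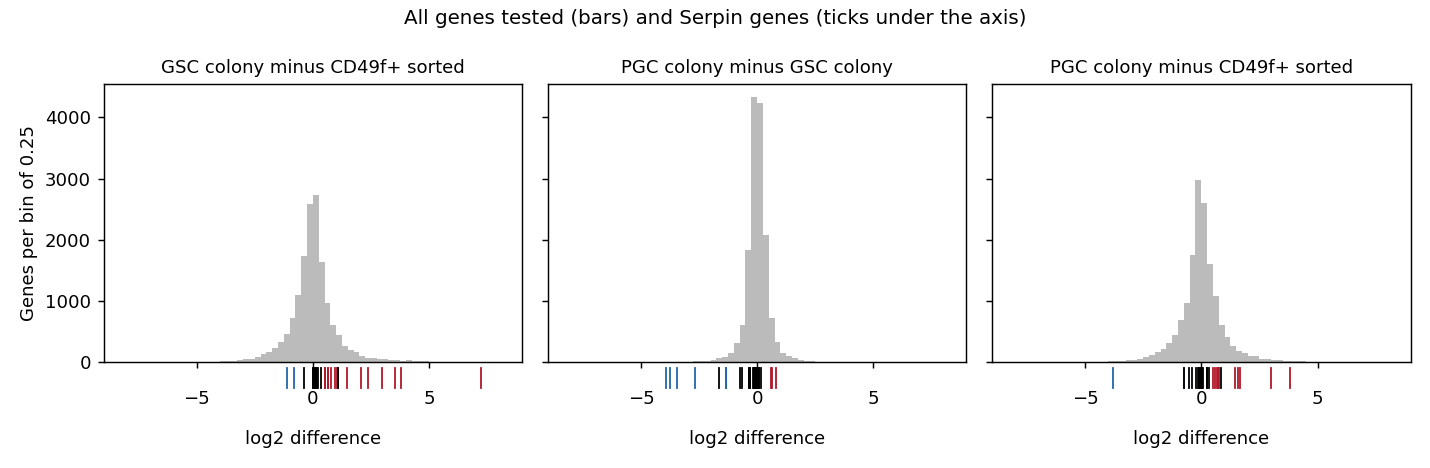
Number of genes per 0.25-wide bin of log2 difference (bars) for all 15459 genes tested, with the 28 Serpin genes as ticks under the axis, red where called higher and blue where called lower. Serpina3n at 7.25 lies near the right end of the bars on the left panel, and the other called ticks there lie between -1.12 and 3.81.

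The proteases that serpins block went both ways. Of 32 measured, 5 rose and 9 fell in GSC colonies against sorted cells (median -0.17), 4 rose and 3 fell in PGC against GSC colonies (median -0.10), and 5 rose and 11 fell in PGC colonies against sorted cells (median -0.18). Without normalization between arrays the balance turned, to 11 higher and 6 lower in the first comparison and 11 higher and 5 lower in the last. With it, 14, 7 and 16 of the 32 were called in the 3 comparisons, where 47.1%, 15.1% and 46% of all genes were. Against sorted cells, calls were thus about as frequent as among all genes. The same shares of all genes apply to the lists below. Plat, the tissue plasminogen activator that Serpini1 blocks, rose by 1.61 ± 0.12 in GSC colonies and by 0.71 ± 0.12 in PGC colonies over sorted cells, and PGC colonies fell by 0.90 ± 0.12 against GSC colonies (SE; limma adjusted p = 1e-04, 0.0038 and 0.005). Plau, urokinase, differed by -0.53 ± 0.18 in GSC colonies against sorted cells (SE; limma adjusted p = 0.051) and fell by 0.78 ± 0.18 in PGC colonies (SE; limma adjusted p = 0.013). Ctsk, the collagen-cutting cathepsin K, was 51.1-fold higher in GSC colonies than in sorted cells and 5.33-fold higher in PGC colonies (limma adjusted p = 2.6e-06 and 5.4e-05). Ctss, cathepsin S of leukocytes, was at least 22.1-fold lower in GSC colonies than in sorted cells, and at least 7.95-fold higher in PGC than in GSC colonies (limma adjusted p = 2.2e-06 and 2.3e-05). Whether any member called here blocks Ctsk or Ctss was not examined. Klk8, a kallikrein, was highest in PGC colonies, 5.08-fold above GSC colonies (limma adjusted p = 0.00091).

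Receptors and cofactors of serpins were more often called higher than lower in colonies against sorted cells. Of 19 measured, 11 rose and 2 fell in GSC colonies against sorted cells (median 0.62), and 11 rose and 2 fell in PGC colonies against sorted cells (median 0.82). Between PGC and GSC colonies 4 rose and 3 fell (median -0.06), and 2 and 1 without PGC colony replicate 2. The first split was 17 higher and 0 lower without normalization between arrays. Vldlr, a lipoprotein receptor that takes up protease-serpin complexes, measured 12.31 and 12.49 in GSC colonies, 7.55 and 7.59 in sorted cells, and 12.38 and 12.30 in PGC colonies. It was at least 23.9-fold and at least 22.9-fold higher in GSC and PGC colonies than in sorted cells (limma adjusted p = 2.2e-06 and 3.9e-06). Thbd, thrombomodulin, rose by 3.71 ± 0.14 and 3.65 ± 0.14 (SE; limma adjusted p = 6.3e-06 and 8.2e-06). Sdc4, a heparan sulphate proteoglycan, fell by 0.98 ± 0.19 and 1.76 ± 0.19 (SE; limma adjusted p = 0.0066 and 0.00053).

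Procollagens and their processing enzymes, the partners of Serpinh1, were mostly higher in both kinds of colony. Of 31 measured, 23 rose and 1 fell in GSC colonies against sorted cells (median 1.54), and 24 rose and 2 fell in PGC colonies (median 1.84). Col6a3, a collagen VI chain, rose by 5.83 ± 0.11 and 6.00 ± 0.11, and Col5a1, a collagen V chain, by 4.75 ± 0.18 and 4.64 ± 0.18 (SE; limma adjusted p = 1.9e-06, 3.8e-06, 6.3e-06 and 8.8e-06). The gene that fell in both was Fkbp14, a folding enzyme of the endoplasmic reticulum, by 1.33 ± 0.10 and 1.70 ± 0.10 (SE; limma adjusted p = 0.00012 and 4.4e-05). Between PGC and GSC colonies 2 rose and 7 fell (median -0.08). Col2a1, the cartilage collagen, rose by 1.93 ± 0.15 and Col11a1 fell by 2.02 ± 0.10 (SE; limma adjusted p = 6e-04 and 0.00013). The probe for Col1a1 lay under the filter level on all 6 arrays, between 6.85 and 7.80, and was not tested.

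Serine protease inhibitors outside the family went both ways. Of 23 measured, 10 rose and 9 fell in GSC colonies against sorted cells (median 0.03), 1 rose and 8 fell in PGC against GSC colonies (median -0.16), and 7 rose and 11 fell in PGC colonies against sorted cells (median -0.37). The first split was 12 higher and 6 lower, and the last 8 and 8, without normalization between arrays. Pi15, a secreted trypsin inhibitor, measured 15.21 and 15.04 in GSC colonies, 8.49 and 8.56 in sorted cells, and 10.98 and 11.03 in PGC colonies. This is the order of Serpina3n, with GSC colonies 97.2-fold above sorted cells and PGC colonies 17.3-fold below GSC colonies (limma adjusted p = 1.9e-06 and 1.9e-05). Tfpi2, a Kunitz inhibitor of plasmin, rose by 5.55 ± 0.21 and then fell by 3.30 ± 0.21 in the same comparisons (SE; limma adjusted p = 6.3e-06 and 0.00025). Spint2, a Kunitz inhibitor of epithelial proteases, fell by 2.36 ± 0.16 and 2.28 ± 0.16 in GSC and PGC colonies against sorted cells (SE; limma adjusted p = 6.4e-05 and 8.1e-05).

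Genes of the complement and contact systems, which Serping1 restrains, moved in opposite directions. Of 12 measured, 2 rose and 4 fell in GSC colonies against sorted cells (median 0.03), 4 rose and 3 fell in PGC against GSC colonies (median -0.06), and 1 rose and 7 fell in PGC colonies against sorted cells (median -0.84). Between the colony groups it was 1 and 3 without PGC colony replicate 2. With normalization left out it was 5 higher and 4 lower in the first comparison and 3 and 7 in the last. In the main fit 6, 7 and 8 of the 12 were called, where 47.1%, 15.1% and 46% of all genes were. The first of these counts lies near the share of all genes. C1ra, a protease that Serping1 blocks, measured 12.30 and 12.34 in GSC colonies, 11.40 and 11.23 in sorted cells, and 10.34 and 10.49 in PGC colonies. Like Serping1 it was highest in GSC colonies, by 1.00 ± 0.12 over sorted cells, and PGC colonies fell by 1.90 ± 0.12 against GSC colonies (SE; limma adjusted p = 0.00074 and 0.00024). C2, cut by the C1 complex, rose by 1.51 ± 0.12 and fell by 2.29 ± 0.12 in the same comparisons (SE; limma adjusted p = 0.00011 and 0.00012). C1qb, part of the recognition unit and a macrophage gene, was at least 97.3-fold lower in GSC colonies than in sorted cells (limma adjusted p = 1.9e-06). C1qa, C1qb and C1qc stand both in this list and among the 14 leukocyte markers, all of which fell. The changes of the 2 lists are thus in part those of the same genes.

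**Figure D4:**
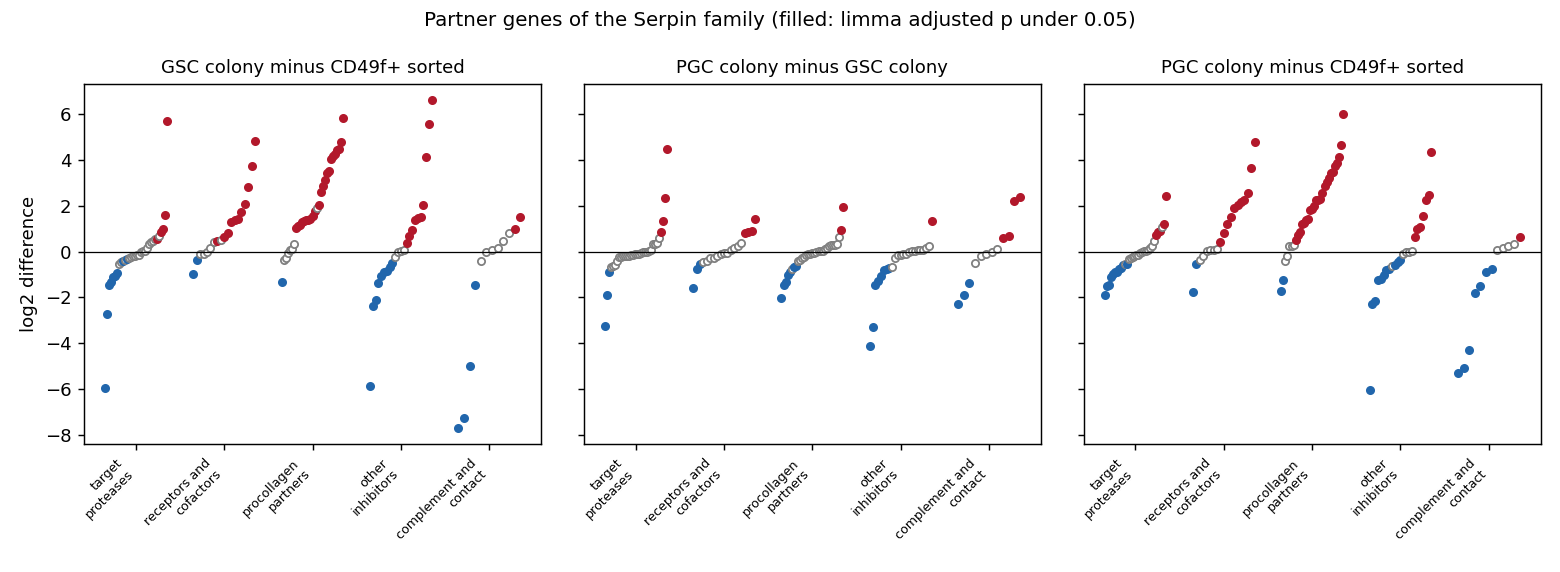
The log2 difference (y axis) of each measured gene of 5 partner lists in the 3 comparisons, sorted within each list; filled points passed limma's adjusted p of 0.05, red higher and blue lower, and points of genes under the filter level in a group are fitted values, not bounds. Procollagen partners lie mainly above 0 in both comparisons with sorted cells (23 and 24 of 31 called higher). Between the colony groups their median is -0.08, with 2 called higher and 7 lower.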

How the data were processed

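Each of 6 arrays measured Cy5-labelled RNA of 1 sample, from total RNA amplified and labelled per the labels' protocols. The deposited table holds the authors' intensity values, on a linear scale, of 26423 probes. How background was subtracted and values were scaled, and with which software, is not given in the sources used here. Medians were 606 and 558 (GSC colony), 393 and 406 (sorted), and 587 and 541 (PGC colony), and up to 474 values of an array lay below 0. No detection calls were used, so signal over background can be judged only by the filter level. With 2 arrays a group, their number limits precision.

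Probes were named by the platform annotation, which is old: 21876 had 1 symbol, 0 several and 4547 none. All 43 members were found in RefSeq by Entrez identifier. The probe with the highest mean stood for a gene; the second probes of Serpina3j, Serpina7 and Serpinc1 lay under the filter level.

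From the deposited intensity, normexp (offset 50), log2 and quantile normalization gave the values, and 1 fit of all 6 arrays in R 4.3.3 with limma 3.58.1 (lmFit, eBayes, 3 residual degrees of freedom) all tests, two-sided. The fit was also run on simulated normal values, drawn independently for each gene and array. Such a run cannot test signal shared between probes or repeat arrays of a pool. The median SE was 0.134. Members called at 2-fold or more are described in full, the rest by range, count or single values; up to the 2 largest rises and falls of each partner list could be named. Plau, Furin, Gzmb and Col1a1 were added for their roles, and the marker genes picked as examples, after their values were seen. Protein sequences are not analysed here. Members and lists were chosen with earlier results of these data known. The alternatives covered background step, normalization, filter, choice of probe, fit, a replicate block and each array left out.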

Additional observations from a re-analysis of the deposited data

How the results depend on the processing

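Of 38 member differences called, 27 kept their direction and call under every alternative that tested them, 11 lost the call under at least 1, and 0 reversed. Of the 18 alternatives, those with other filters or arrays left some dim genes untested, so Serpinb1b was tested in 14 and Serpinb2 in 15. The calls lost are given beside the genes above. Without normalization between arrays the PGC colony against sorted count moved from 13 to 20, with the median of all genes at 0.423. There the uncalled PGC colony against sorted differences of Serping1 and Serpinb6c turned to 0.314 and 0.198. Leaving out 1 array at a time, the uncalled Serpinb6c difference ranged from -0.907 to 0.488, and it was 0.349 without sorted replicate 2 and 0.488 without PGC colony replicate 1. Counts of called members then ranged from 13 to 16 in GSC colonies against sorted cells, 8 to 9 between PGC and GSC colonies, and 11 to 13 in PGC colonies against sorted cells. Among the lists, 14 further counts moved by over 1.5 times under some alternative, 5 of them for fibroblast markers between PGC and GSC colonies, which fell from 10 to 5 or 6. Calls among other inhibitors dropped to 11 against sorted cells when the filter stood at the 50th percentile. Where an arm was left with 1 array, it was assumed to vary like the other groups. Replicate numbers did not go with one shared direction in all 3 groups. Deviations of same-numbered arrays correlated at -0.342 (GSC colony and sorted), -0.179 (GSC and PGC colony) and 0.326 (sorted and PGC colony) over 15459 genes. Whether same-numbered arrays shared a run was not tested. With the replicate block the counts were 15, 9 and 13, against 16, 9 and 13 without it.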

Other observations

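The clade b genes on chromosome 13 lie in a row in RefSeq's gene order, and neighbours moved both alike and apart between GSC colonies and sorted cells. In the run Serpinb1a, Serpinb1c, Serpinb6b, Serpinb9, Serpinb9b and Serpinb1b, the log2 differences were 0.34, 0.07, 0.97, 2.06, 2.98 and 1.05, and the last 4, which are direct neighbours, were called higher. The next 2 genes of the run, Serpinb9c and Serpinb9d, lay under the filter level and were not tested. Further along, the direct neighbours Serpinb6c and Serpinb6a were called in opposite directions, at 3.52 and -0.82. On chromosome 11 the neighbours Serpinf1 and Serpinf2 differed by 0.65 and 0.02, and on chromosome 12 Serpina5 and Serpina3a, also neighbours, by -1.12 and 0.64. No test of position was run.

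Some members had arrays of 1 pair far apart, which limits what can be said of them. Serpina3j measured 7.73 and 6.42 in sorted cells (SD 0.93), and Serpinb6e measured 6.33 and 7.74 in PGC colonies. Serpinb6c differed by more than 1 unit within both the sorted and the PGC colony pair.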
